A study of Mus musculus with 10 samples.

Results

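The genes described here are 10 markers of the non-germline cells around and between the seminiferous tubules, chosen by name from 28125 genes of the scRNA-seq matrix. 5 are smooth muscle genes of the peritubular wall (Acta2, Myh11, Tagln, Cnn1, Des) and 5 are endothelial genes (Vwf, Pecam1, Cdh5, Kdr, Flt1). All 10 also have a row among the 30670 genes of the scATAC-seq matrix. Nuclei came from testes of C57BL/6J wild-type mice at 11, 17 and 25 dpp, from 8-week-old Cre/+ mice, which carry Stra8-Cre, and from 8-week-old Nfya-CKO mice, in which the same Stra8-Cre acts on Nfya fl/fl and removes part of Nfya. Stra8-Cre is active in pre-meiotic germ cells, so the muscle and endothelial cells of every group are outside the cells in which it is expressed. Both assays were run on the same nuclei preparation, though many cells in the files have values of only one of them, and each of the 5 conditions has 1 library per assay. Both matrices hold 1 pooled value for each of 13 populations, with all libraries merged, so no value below has a replicate or an error, no test was possible, and each difference is a description of these libraries.

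Peritubular myoid cells form the contractile wall of the tubule. They make the same actin, myosin and actin-binding proteins as smooth muscle of vessels, and serum response factor with its coactivators acts on many of these genes through CArG boxes. Endothelial cells line the vessels of the interstitium, do not enter the tubule, and are recognised by junction proteins such as PECAM1 and VE-cadherin, by von Willebrand factor and by the VEGF receptors. ETS factors, whose core motif is GGAA, act on many endothelial genes. The tissue was digested with collagenase and then trypsin before nuclei were prepared.

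For 5 of the 10 genes (Acta2, Cnn1, Des, Kdr, Flt1) the RefSeq table of GRCm38.p6 held the 250 bases before a transcription start. The motif sites found there are shown because the muscle genes and the endothelial genes each share a pattern of RNA described below. A strict CArG box was in none of the 5 windows and is in 1.47% of all 32851 windows of this length. A CArG box with at most 1 inner G or C, searched for on both strands, is in 8.59% of all windows and occurred in Acta2, at 2 places, and in Kdr. The letters GGAAGT, on either strand, are in 19.7% of all windows and occurred in Kdr and Flt1. Both CArG-like sites of Acta2 and the GGAAGT sites of Kdr and Flt1 are printed with their flanks on the strand of the gene and with the motif in capitals. GGAAGT of Kdr reads on the opposite strand, and the CArG-like site of Kdr is not printed. The sites lie at chr19:34255438-34255467 and chr19:34255388-34255417 for Acta2, chr5:75978655-75978684 for Kdr and chr5:147726046-147726075 for Flt1, all on the minus strand. GENCODE M21 places an exon of a longer Acta2 transcript over both Acta2 sites and no exon of Kdr or Flt1 over theirs. The RefSeq loci reach further upstream, to base 34255585 for Acta2, 75979072 for Kdr and 147726438 for Flt1. Each printed site thus lies inside the locus of its gene, downstream of the outermost start.
Acta2, first site: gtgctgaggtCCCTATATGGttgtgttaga
Acta2, second site: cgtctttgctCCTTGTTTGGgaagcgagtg
Kdr, GGAAGT: tggctacattttACTTCCaccagaaaccga
Flt1, GGAAGT: ggtgccggggtaGGAAGTgggctggggaaa
These letters are descriptions of the sequence and do not show binding. The letters CCAAT, the core of the motif that NFYA binds, are in 33.8% of all windows and occurred in the window of Cnn1 only, at 2 places.

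The populations that matter here are 3 somatic columns. The first holds the 3265 Sertoli cells, the nurse cells inside the tubule. The second holds 5883 somatic cells that the files name soma_CKO and keep apart from their Sertoli column, called other somatic cells here. That name does not mean that Sertoli cells are absent from it: of the 1942 of these cells with scATAC-seq, the files' naming by scATAC-seq calls 1039 (53.5%) Sertoli cells and 729 other somatic cells. Sertoli markers were mixed in RNA. Of 11 such genes, 7 were highest in the Sertoli column and 3 in the column of other somatic cells. The share of all genes highest in each column is not given here, so these counts describe the 11 genes only. Sox9 was 3.54 UMIs per 10000 in the other somatic cells against 10.7 in the Sertoli column. Amh was 0.0321 against 0.927, and Clu 91.5 against 34.1. As given below, these columns drew mostly on libraries that differ in age and genotype, and the values carry both. The third holds 99 cells that the files name soma_unknown, called unknown cells here. The remaining 10 columns are germ cells, from spermatogonia (SpG) to elongating spermatids (ES), and include the 491 SpG of the library labelled Nfya-CKO. Between them lie preleptotene (pL), early leptotene to zygotene (eL/L/Z), leptotene, zygotene and early pachytene (L/Z/eP), pachytene (mP/lP) and diplotene (D) spermatocytes and round spermatids (RS). Median depth was 10904 UMIs per Sertoli cell, 1525 per other somatic cell and 4736 per unknown cell. Nfya itself stood at 1.11 UMIs per 10000 in SpG of the library labelled Nfya-CKO, against 0.456 in control undifferentiated SpG. A gene-level value does not show whether the removed part of Nfya is missing, so the library is called by its label. The paper reports, from western blots and immunohistochemistry, that NFYA protein was depleted in germ cells of Nfya-CKO testes.

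Many scRNA-seq cells share their barcode with a cell of another library. Of 45250 cells, 10571 do, and 3820 barcodes are common to the Cre/+ and the Nfya-CKO library. Shared barcodes were carried by 70.1% of the other somatic cells, 40.4% of the unknown cells and 6.55% of the Sertoli cells. Of 3634 other somatic cells of the library labelled Nfya-CKO that share a barcode with Cre/+, 3310 had a germ cell as partner in Cre/+. Unknown cells paired differently: all 10 of the library labelled Nfya-CKO that share a barcode with Cre/+ had an unknown cell as partner. The 99 unknown cells hold 80 distinct barcodes. In scATAC-seq, 0.588% of 343866 cells share a barcode, and none of the 54 unknown cells does. The pooled RNA values cannot be recomputed without these cells, and their part in the values below was not tested.

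Libraries contributed unequally to the somatic columns. The library labelled Nfya-CKO gave 78.8% of the other somatic cells with a library name (4633 of 5880, exact Clopper-Pearson 95% interval 77.7 to 79.8%). Among cells whose barcode is found in 1 library only, this share was 56.8%. Wild-type testes at 11 dpp gave 87.8% of the Sertoli cells. The library labelled Nfya-CKO gave 0 of the 3264 cells of the Sertoli column, and 0 of its 5152 cells allows a share of up to 0.0582%. This zero belongs to the naming by RNA: by scATAC-seq, 8494 of the 14920 cells of that library (56.9%) were named Sertoli cells. Every library gave unknown cells. The 38 of Cre/+ were 0.317% of that library (95% interval 0.224 to 0.435%), and the 19 from the library labelled Nfya-CKO were 0.369% of theirs (0.222 to 0.575%). Wild-type testes gave 10, or 0.159% (0.0765 to 0.293%), on 11 dpp, another 10, or 0.267% (0.128 to 0.490%), on 17 dpp and 22, or 0.122% (0.0764 to 0.185%), on 25 dpp. The intervals of the 2 libraries from 8-week-old mice overlap, and all these intervals cover counting error only. They treat every cell as separate, yet 14 of the 38 and 10 of the 19 share a barcode with another library. The overlap is therefore not a comparison of independent counts. A difference between somatic columns thus carries age and genotype with it, and these cannot be told apart.

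**Figure D1:**
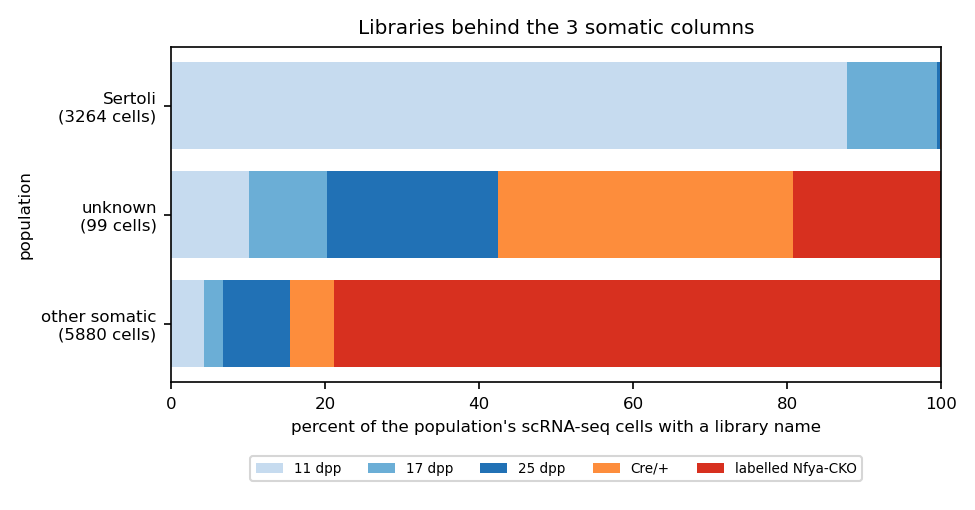
Bars show which library the scRNA-seq cells of each somatic population came from, as a percent of the cells with a library name, with the 5 libraries in colour. The library labelled Nfya-CKO fills 78.8% of the other somatic cells and 19.2% of the unknown cells, and 11 dpp fills 87.8% of the Sertoli cells.

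RNA of the 10 genes separated into 2 patterns. 4 of the 5 muscle genes had their highest value of all 13 populations in the other somatic cells, and all 5 endothelial genes had theirs in the unknown cells. The share of all genes highest in each of these columns is not given here, so these counts describe the 10 genes only. Values are mean UMIs per 10000 UMIs of a cell, and each log2 ratio was taken after adding 0.1 to both values, which lowers the ratio of weak genes. A gene counts as higher from a 2-fold ratio on that scale. Against Sertoli cells, 3 of 5 muscle genes were at least 2-fold higher in the other somatic cells, with a median log2 ratio of 2.16. Of 15250 genes with a mean of at least 0.05, 15.4% were as much higher and 5.98% as much lower, and their median was 0.22. None of the 10 genes was lower. Cnn1 and Des are under that mean, and 8 of the 10 genes are above it. Against the highest germ cell column of each gene, again 3 of 5 muscle genes were higher, where 2.49% of all genes were.

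**Figure D2:**
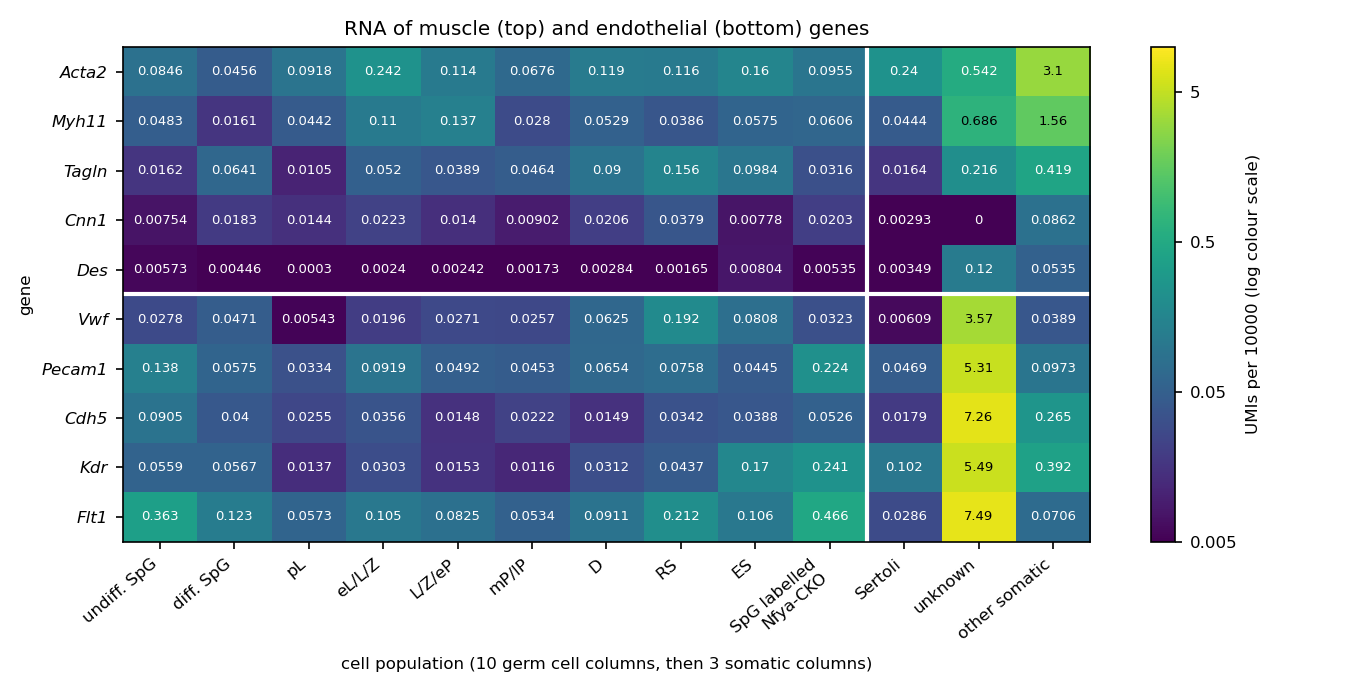
Rows are the 10 genes and columns the 13 populations, with the mean UMIs per 10000 printed in each cell and coloured on a log scale, where values under 0.005 share the darkest colour. The endothelial genes stand between 3.57 and 7.49 in the unknown cells, and Acta2 and Myh11 stand at 3.10 and 1.56 in the other somatic cells.

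Acta2, the smooth muscle actin, was 3.10 per 10000 in the other somatic cells, 0.542 in the unknown cells and 0.240 in Sertoli cells. Germ cells ranged from 0.0456 in differentiating SpG through a median of 0.105 to 0.242 in eL/L/Z spermatocytes. The other somatic cells were thus 12.9-fold above Sertoli cells (log2 ratio 3.23) and 12.8-fold above the highest germ cell column. Sertoli cells were no higher than eL/L/Z spermatocytes.

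Myh11, the smooth muscle myosin heavy chain, was 1.56 in the other somatic cells, 0.686 in the unknown cells and 0.0444 in Sertoli cells. Germ cells lay between 0.0161 and 0.137, with a median of 0.0506 and the highest value in L/Z/eP spermatocytes. Its log2 ratio of the other somatic cells over Sertoli cells was 3.52, above that of 99.4% of the genes compared. Both somatic columns other than Sertoli cells stood above every germ cell column.

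Tagln, which encodes the actin-binding protein transgelin, was 0.419 in the other somatic cells, 0.216 in the unknown cells and 0.0164 in Sertoli cells. RS reached 0.156, the highest of the germ cells, whose lowest value was 0.0105 and whose median was 0.0492. Its distance to the germ cells was therefore small, with a log2 ratio of 1.02 over RS. The level in the unknown cells is worth about 10.1 UMIs of a cell of median depth.

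Cnn1, the calponin of differentiated smooth muscle, was 0.0862 in the other somatic cells and 0.00293 in Sertoli cells, a plain ratio of 29.4 that shrinks to a log2 ratio of 0.86 with the pseudocount. It was at 0 in the unknown cells, where 3 UMIs in cells of median depth would give 0.0640. Germ cells lay between 0.00754 and 0.0379, the latter in RS. The other somatic cells were the highest column, 2.27-fold above RS.

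Des, the muscle intermediate filament desmin, was the exception among the muscle genes. Its highest value was 0.120 in the unknown cells, followed by 0.0535 in the other somatic cells, 0.00804 in ES and 0.00349 in Sertoli cells. The value in the unknown cells is worth about 5.62 UMIs of a median cell, and a single UMI in the shallowest unknown cell would give 0.184. The order of these 2 somatic columns is therefore not resolved. Over the 13 populations Des followed Cdh5 (Pearson r 0.96) and Kdr (0.95) more closely than Myh11 (0.83) or Acta2 (0.69). This is a description over columns of unequal depth that includes the weakly measured value in the unknown cells.

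The endothelial genes stood far apart in the unknown cells. Against Sertoli cells, 5 of 5 were at least 2-fold higher, with a median log2 ratio of 5.2, where 18.6% of all genes were as much higher and their median was 0.07. Against the highest germ cell column, a comparison chosen after the values had been seen, again 5 of 5 were higher, with a median of 4.04, where 4.73% of all genes were. In the other somatic cells 2 of 5, Cdh5 and Kdr, exceeded Sertoli cells and 0 of 5 were higher than the highest germ cell column, where 15.4% and 2.49% of all genes were. The medians were 0.43 and -0.72, beside 0.22 and -0.96 for all genes. Vwf and Flt1 were at least 2-fold lower than that column, as were 48.2% of all genes. Directly against the unknown cells, 5 of 5 endothelial genes were lower in the other somatic cells, where 8.52% of all genes were, and 2 of 5 muscle genes (Acta2 and Myh11) were higher, where 10.1% were. Both somatic comparisons share the Sertoli column.

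Pecam1, a junction protein of endothelial cells and also of platelets and leukocytes, was 5.31 in the unknown cells, 0.0973 in the other somatic cells and 0.0469 in Sertoli cells. The next highest column was SpG of the library labelled Nfya-CKO at 0.224, followed by undifferentiated SpG at 0.138. The other germ cells went down to 0.0334 in pL. The unknown cells were 23.7-fold above the highest germ cell column.

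Cdh5, or VE-cadherin, the adhesion molecule of endothelial junctions, was 7.26 in the unknown cells, 0.265 in the other somatic cells and 0.0179 in Sertoli cells. Germ cells ranged from 0.0148 in L/Z/eP spermatocytes through a median of 0.0349 to 0.0905 in undifferentiated SpG. The log2 ratio of unknown cells over the highest germ cell column was 5.27. The other somatic cells were 14.8-fold above Sertoli cells.

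Vwf, which encodes the clotting protein stored in endothelial granules, was 3.57 in the unknown cells, 0.0389 in the other somatic cells and 0.00609 in Sertoli cells. RS came next at 0.192, and the median of the germ cells was 0.0300. The other somatic cells stood below RS, ES, diplotene spermatocytes and differentiating SpG for this gene.

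Kdr, the main signalling receptor for VEGF-A, was 5.49 in the unknown cells, 0.392 in the other somatic cells and 0.102 in Sertoli cells. SpG of the library labelled Nfya-CKO had 0.241 and undifferentiated SpG of the controls 0.0559, a log2 ratio of 1.13. Kdr was the only one of the 10 genes with a 2-fold difference between these SpG on the scale with the pseudocount. Of all genes, 4.09% were as much higher and 3.08% as much lower. The control column merges libraries of different ages. Age and genotype therefore cannot be told apart for SpG of the library labelled Nfya-CKO. Leydig cell transcripts were also present in those SpG: Insl3, a Leydig cell hormone, was 39.8 there, 0.0640 in control undifferentiated SpG and 177 in the other somatic cells. The SpG value was 61.4% of the other somatic value for Kdr and 3.08% for Acta2. For the 9 Leydig genes it ranged from 16.3% for Hsd3b1 to 24.6% for Star, and for the 12 macrophage and blood genes it was 29.3% or more. The part of other cells' RNA in the Kdr value was not tested.

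Flt1, the VEGF receptor that binds the ligand tightly and signals weakly, was 7.49 in the unknown cells, 0.0706 in the other somatic cells and 0.0286 in Sertoli cells. Its next values were in SpG, with 0.466 in the library labelled Nfya-CKO and 0.363 in control undifferentiated SpG, and then 0.212 in RS. The other somatic cells ranked below 9 columns for Flt1, the furthest down of the 5 endothelial genes. Undifferentiated SpG of both kinds were well above them.

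Within each group the genes moved together to different degrees. Over the 13 populations, the 10 pairs of endothelial genes had a Pearson r of 0.87 to 0.97 (median 0.93) on the log2 scale. All 5 genes were highest in the unknown cells, and r without that column is not given here. Spearman's rho of Pecam1 with the other endothelial genes ran from 0.42 for Vwf to 0.71 for Flt1. The 10 muscle pairs ranged from 0.10, for Cnn1 with Des, to 0.94, for Acta2 with Myh11 (median 0.70). The genes most like Acta2 among 10857 others were Adamts5 (r 0.96), Col3a1 (0.96), Col1a2 (0.95), Maf (0.94) and Serpinf1 (0.94), with Myh11 next, and all 5 were highest in the other somatic cells. Those most like Pecam1 were Palmd (0.99), Lmo2 (0.99), Tnfrsf19 (0.99), Il2rg (0.98) and Elovl7 (0.98), all highest in the unknown cells. With Spearman's rho, 0 of the 5 most like Acta2 stayed among its first 5, and 1 of the 5 most like Pecam1, which was Il2rg.

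The other somatic cells were a mixture, and the muscle genes were not their leading genes. Ranked by the ratio over the next highest population among 10858 genes, the first 10 were Col1a2, Dcn, Osr2, Col6a1, Fgl2, Fhl2, Mfap4, Tcf21, Adamts5 and Pdgfra, with Acta2 at rank 15 and Myh11 at rank 109. Of the 10, Col1a2, Dcn, Tcf21 and Pdgfra are on the list of pericyte and stromal genes. Leydig markers summed to 231.2 per 10000 over 9 genes, against 2.65 in Sertoli cells, Sertoli markers to 130.9 over 11 genes, of which Clu gave 91.5, against 104.2, and pericyte and stromal genes to 28.0 over 15, against 1.17. The 5 muscle genes summed to 5.22 and the 5 endothelial genes to 0.863. The files assign these cells to 6 clusters, and the matrix gives 1 value for all of them. In such a mean, more cells of a type and more RNA per cell cannot be told apart.

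**Figure D3:**
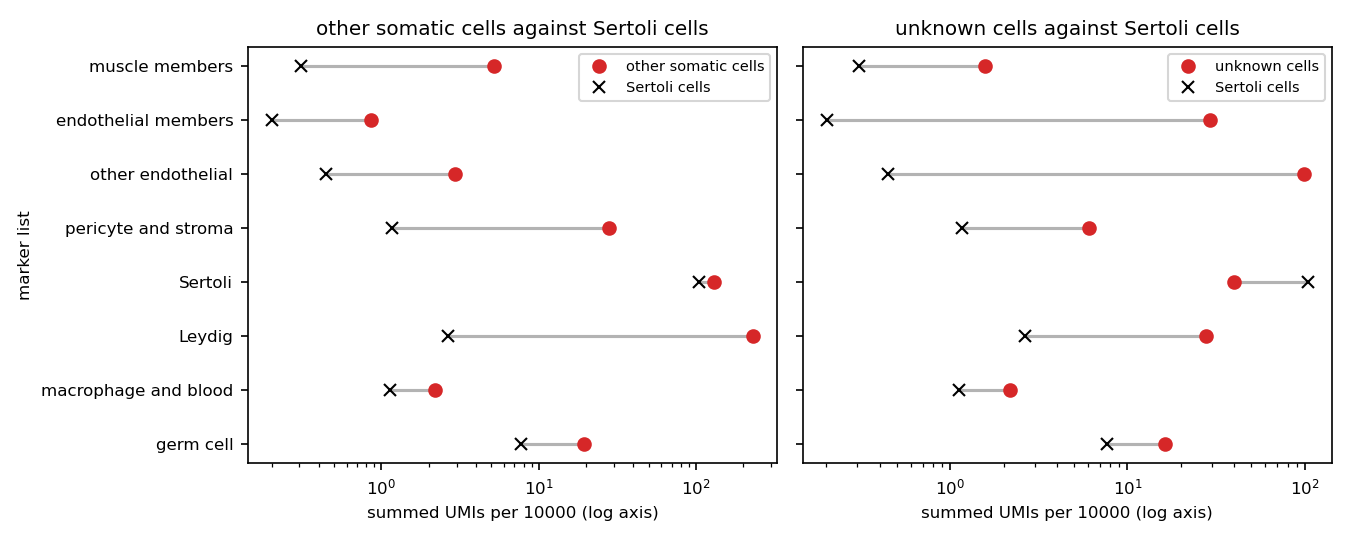
Summed UMIs per 10000 of 8 marker lists (log axis) in the other somatic cells and in the unknown cells, each beside Sertoli cells. The endothelial members reach 29.1 in the unknown cells, against 0.201 in Sertoli cells, and Leydig genes reach 231.2 in the other somatic cells.

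Other contractile genes followed the muscle genes in part. Of 18 further genes of contractile cells, 11 exceeded Sertoli cells at least 2-fold in the other somatic cells and 0 were lower, where 15.4% of all genes were higher and 5.98% lower, with a median log2 ratio of 1.14 beside 0.22. Srf and Myocd are on this list and on the list of controlling genes as well. Mylk, the myosin light chain kinase, was 3.82 against 2.80, so it was not among them. Tpm1 and Myl9, a tropomyosin and a regulatory myosin light chain, were 3.30 against 1.44 and 2.94 against 0.336. Actn1 was 1.66 in the other somatic cells and 1.67 in the unknown cells, and Cnn3, a calponin found outside muscle, was highest in Sertoli cells, at 3.59 against 2.02. Of the 10 genes known to control smooth muscle or peritubular cells, 3 were higher than in Sertoli cells and 2 lower, beside the same 15.4% and 5.98%. Among the higher ones were Myocd, the SRF coactivator of smooth muscle, at 0.173 against 0.0245, and the hedgehog target Gli1, at 0.188 against 0.00468. Gata6, at 0.414 against 2.20, and Dhh, the hedgehog ligand made by Sertoli cells, at 0.761 against 2.89, were the 2 lower ones. Srf itself was 1.02 against 1.24.

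Further endothelial genes marked the unknown cells as the 5 chosen genes did. Of 22 others, 19 were at least 2-fold higher there than in Sertoli cells, where 18.6% of all genes were, with a median log2 ratio of 4.62. 18 had their highest value there, a count for which the share of all genes is not given here. The 10 leading genes of this column were Cldn5, Ptprb, Ly6c1, Abcb1a, Esam, Mmrn2, Tm4sf1, Tie1, Sema3g and Adgrf5, of which 5 are on the endothelial list. The column can therefore be called endothelial-like, and the files' own name for it is unknown. It also held transcripts of other cell types. Sertoli genes summed to 39.9 per 10000 over 11 genes, of which Clu gave 23.8. Leydig genes summed to 27.6 over 9, of which Insl3 gave 20.5, and germ cell genes to 16.3 over 12. The 22 further endothelial genes summed to 99.3 in the unknown cells. Cldn5, the claudin of endothelial tight junctions, was 17.4 there and at most 0.0553 elsewhere. Cd34 was 7.87 against 0.900 in the other somatic cells, and Tek, the angiopoietin receptor, 2.73 against 0.874, with 0.920 in SpG of the library labelled Nfya-CKO. The exceptions were Plvap, the diaphragm protein of fenestrated vessels, at 0.0136, and the lymphatic genes Lyve1, at 0, and Prox1, at 0.0452, all under the 0.0640 that 3 UMIs would give. Erg, an endothelial ETS factor, was 0.746 in the unknown cells and 0.922 in control undifferentiated SpG, its highest column.

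Ligands and coreceptors of the VEGF and angiopoietin systems were high in the same column. 5 of 7 ligands and 4 of 4 receptors and coreceptors were at least 2-fold higher in the unknown cells than in Sertoli cells, where 18.6% of all genes were. Vegfa, the main ligand of Kdr and Flt1, was 1.54 in the unknown cells, 0.508 in Sertoli cells and 0.361 in the other somatic cells. Vegfb was highest in pL, at 0.547. Nrp1, a coreceptor of Kdr, was 3.93 in the unknown cells and 0.642 in the other somatic cells, and Flt4, the receptor of the lymphatic ligands, 0.567 and 0.0441.

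Muscle genes were also present in the unknown cells, as were some pericyte genes. Of the 5, Myh11, Tagln and Des were at least 2-fold above Sertoli cells, where 18.6% of all genes were. With a pseudocount of 1 this count was 0, where 2.62% of all genes were higher. The median log2 ratio over the 5 genes was 1.09, beside 0.07 for all genes. Acta2, Myh11 and Tagln were there at 17.5%, 44.0% and 51.6% of their level in the other somatic cells, while the 9 Leydig genes ranged from 7.71% for Hsd3b6 to 35.8% for Nr5a1 and the 11 Sertoli genes from 16.3% for Rhox5 to 120% for Wt1. Acta2 lay within both ranges, and Myh11 and Tagln lay above the Leydig range and within the Sertoli range. Cnn1, at 0%, and Des, at 224%, cannot be placed against these ranges. For Cnn1, 3 UMIs in the unknown cells would give 0.0640, against 0.0862 in the other somatic cells, and for Des the order of the columns is not resolved. Of 15 pericyte and stromal genes, 7 were at least 2-fold higher in the unknown cells than in Sertoli cells and 1 was lower, where 18.6% and 11.2% of all genes were. Rgs5, a pericyte gene, was 1.65 against 0.0800 in the other somatic cells, and Notch3, a receptor of mural cells, 0.587 against 0.0890. The pericyte genes Cspg4 and Abcc9 were 0.148 against 0.171 and 0.102 against 0.122, and Col3a1, a stromal collagen, 0.968 against 3.45. The fibroblast genes Dcn and Pdgfra were 0.0166 and 0.0180, against 2.45 and 1.63. Germ cell RNA was present as well: Prm1, a protamine of ES, was 2.10 in the unknown cells, 1.54 in the other somatic cells and 0.00198 in Sertoli cells. Macrophage and blood genes summed to 2.17 per 10000 over 12 genes in the unknown cells, with 3 at 0, among them the leukocyte marker Ptprc. The part of these other transcripts in the muscle values was not tested.

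Open chromatin at the 5 endothelial genes was more even across populations than their RNA. Pecam1, for instance, ran from 0.0334 to 5.31 in RNA and from 1.69 to 9.24 in scATAC-seq. The muscle genes were not uniform in this: with the pseudocounts, Cnn1 and Des varied less in RNA than in scATAC-seq. scATAC-seq values are the signal assigned to a gene, scaled to a sum of 1000000 per population. The study's methods define accessibility of a promoter as mean normalised coverage in a short window on both sides of the transcription start, and do not say whether the gene matrix holds that quantity, so the region behind each value is uncertain. Mitochondrial genes took from 31.2% of the signal in pL to 64.5% in the other somatic cells, so the counts of genes below are also given without them. In the unknown cells the signal comes from 54 cells, 7604 genes are at 0 and the smallest value above 0 is 0.341. In the files' own naming by scATAC-seq, these 54 cells were called Sertoli cells (22), other somatic cells (20) or germ cells (12). As given above, 53.5% of the other somatic cells were called Sertoli cells in that naming, so the comparison of these columns in scATAC-seq is between columns set by RNA.

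At the muscle genes, the other somatic cells and Sertoli cells did not differ the way they did in RNA. Acta2 had a signal of 14.8 in the other somatic cells and 44.2 in Sertoli cells, the highest of the 13 columns, and 41.6 against 90.2 without mitochondrial genes. Its RNA was 12.9-fold higher in the other somatic cells and its scATAC-seq signal lower, with a log2 ratio of -1.52, or -1.10 without mitochondrial genes. 1 of 5 muscle genes was at least 2-fold higher, which was Des (11.8 against 5.33), where 2.01% of all genes were, and 1 was lower, where 4.78% were. Myh11 was 17.8 against 12.7, Tagln 14.6 against 16.5 and Cnn1 4.63 against 3.97. Without mitochondrial genes, Tagln turned to 41.0 against 33.7, with the median log2 ratio over the 5 genes at 0.62 and that of all genes at 0.07. Acta2 was then still the 1 lower gene, where 1.98% of all genes were lower. In the unknown cells 2 of 5 were at least 2-fold below Sertoli cells, Acta2 at 2.47 and Des at 0.849, where 23.5% of all genes were, and again 2 of 5 without mitochondrial genes, where 25.1% were. Without mitochondrial genes 3 of 5 muscle genes, Acta2, Myh11 and Des, were lower in the unknown cells than among other somatic cells, where 28.8% of all genes were.

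SpG of the library labelled Nfya-CKO were the highest germ cell column at all 5 muscle genes, on both scales. They were also the highest germ cell column at Cdh5, Kdr and Flt1, so this was not particular to the muscle genes. The share of all genes for which this holds is not given here. They had 22.4 at Acta2, 30.5 at Myh11, 20.8 at Tagln, 11.8 at Cnn1 and 19.7 at Des. Control undifferentiated SpG had 14.2, 24.1, 12.2, 6.18 and 14.9 in the same order. Each gene was thus higher in SpG of the library labelled Nfya-CKO, yet 0 of 5 by 2-fold, where 1.49% of all genes were and 0.483% were as much lower. The median log2 ratio was 0.63, beside -0.05 for all genes. The control column merges libraries of different ages, so age and genotype cannot be told apart here either. Without mitochondrial genes the medians were 0.77 and 0.09, and Cnn1 reached 2-fold, at 21.8 against 10.4, as did 4.47% of all genes, while 0.777% were as much lower. RNA of the muscle genes in these SpG differed by at most 0.18 on the log2 scale. All these RNA values lie under the pseudocount of 0.1, which holds such ratios near 0, so they do not show that RNA was unchanged. Plain RNA ratios ran from 0.935 for Des to 2.69 for Cnn1.

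Endothelial genes in the unknown cells stood out less in scATAC-seq than in RNA. Against Sertoli cells, 2 of 5 were at least 2-fold higher, Vwf (8.01 against 0.609) and Cdh5 (12.6 against 4.25), where 11.7% of all genes were. Kdr was 26.5 against 14.8, Pecam1 7.46 against 4.49 and Flt1 8.30 against 10.2. Without mitochondrial genes 3 of 5 passed, with Kdr at 63.4 against 30.3, where 15.8% of all genes did. In the other somatic cells 1 of 5 exceeded Sertoli cells, Cdh5 at 10.2 against 4.25, where 2.01% of all genes were higher, and without mitochondrial genes 2 of 5, Cdh5 and Pecam1, where 8.04% of all genes were. Cdh5 was highest in the unknown cells on both scales. For Vwf, ES had 19.7, above the unknown cells, in a column of 124 cells. Flt1 and, with mitochondrial genes, Kdr were highest in SpG of the library labelled Nfya-CKO, at 30.6 and 32.0, with control undifferentiated SpG at 29.0 and 28.4.

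**Figure D4:**
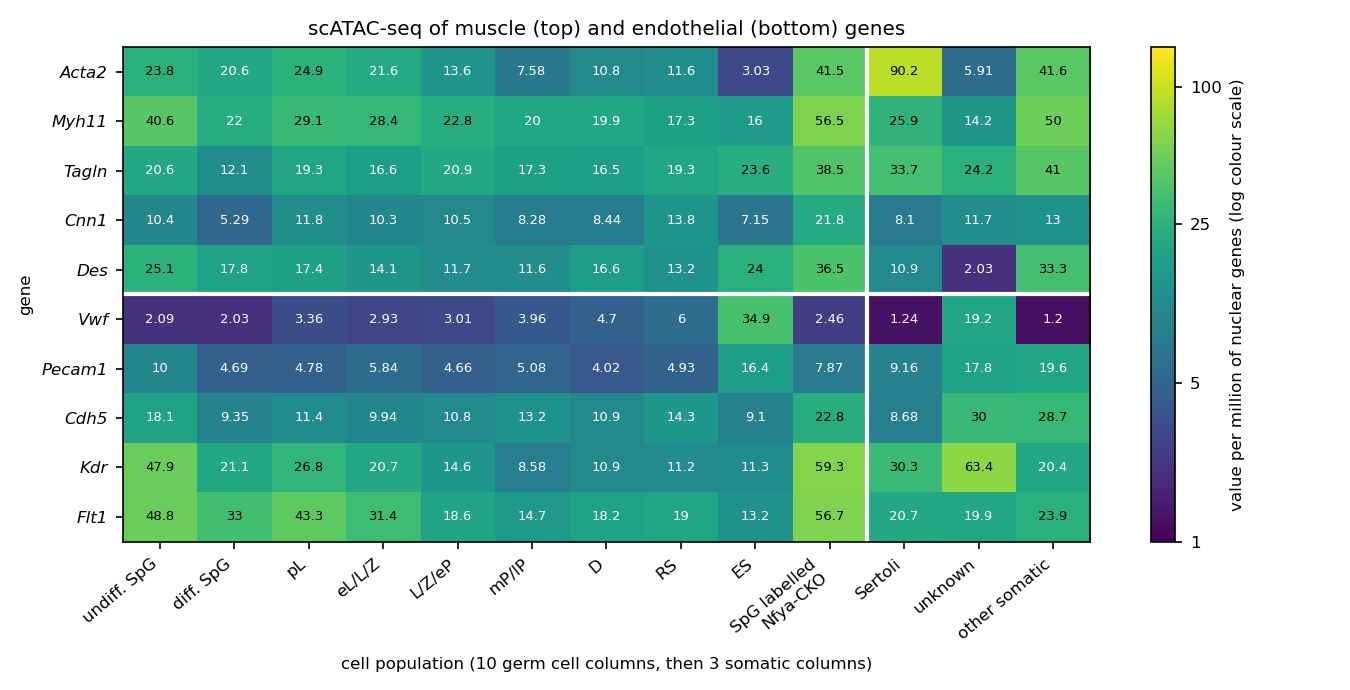
Rows are the 10 genes and columns the 13 populations, with the scATAC-seq value per 1000000 of nuclear genes printed in each cell and coloured on a log scale. Sertoli cells are highest at Acta2 (90.2), ES at Vwf (34.9), the unknown cells at Kdr (63.4), and SpG of the library labelled Nfya-CKO at Flt1 (56.7).

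Against the highest germ cell column, 0 of the 10 genes had a 2-fold higher signal in either somatic column. This holds for 0.258% of all genes in the other somatic cells, or 1.07% without mitochondrial genes, and for 2.09% or 4.14% in the unknown cells. At least 2-fold lower were 1 muscle and 3 endothelial genes in the other somatic cells, where 69.7% of all genes were lower, and 4 muscle and 2 endothelial genes in the unknown cells, where 61.2% were. Without mitochondrial genes, 0 muscle and 3 endothelial genes were lower in the other somatic cells, where 41.6% of all genes were. In the unknown cells 3 muscle genes and 1 endothelial gene were then lower, where 50.4% were.

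RNA and scATAC-seq varied together across populations to different degrees. Over the 13 populations, Pearson's r between the 2 assays on the log2 scale, without mitochondrial genes, ran from -0.54 for Des to 0.33 for Cnn1 among the muscle genes. Among the endothelial genes it was 0.10 for Flt1, 0.50 for Pecam1, 0.57 for Kdr, 0.61 for Vwf and 0.70 for Cdh5. The median over 15210 genes was 0.35, above all 5 muscle genes and below all endothelial genes except Flt1. These are descriptions over 13 columns that differ in depth and in the number of cells.

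**Figure D5:**
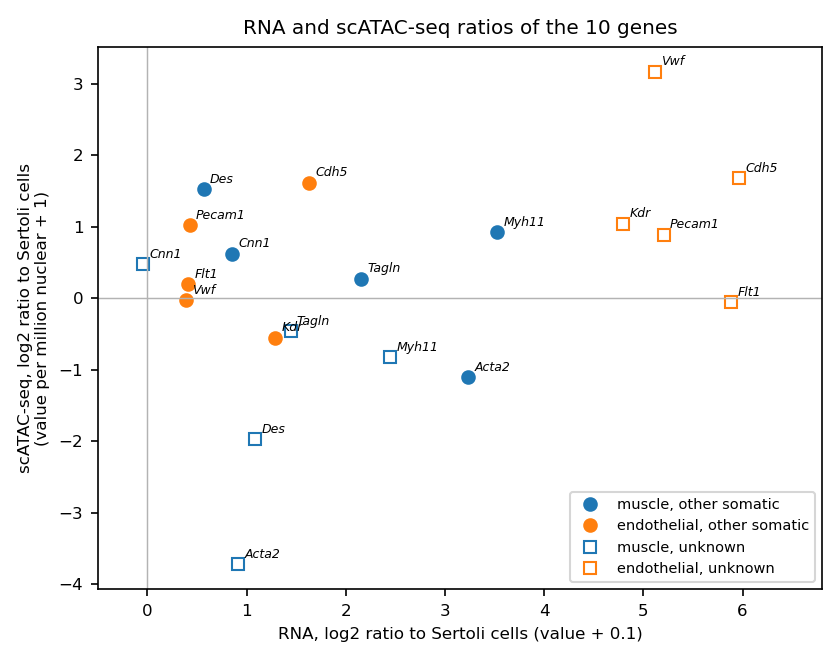
Each point is 1 of the 10 genes, with its RNA log2 ratio to Sertoli cells on the x axis and its scATAC-seq log2 ratio, without mitochondrial genes, on the y axis, for the other somatic cells (filled) and the unknown cells (open). The 5 endothelial genes in the unknown cells lie at 4.79 or more on the x axis, and Acta2 lies above 0 in RNA and below 0 in scATAC-seq in both populations.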

How the data were processed

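Nuclei of 5 conditions were read by simultaneous scRNA-seq and scATAC-seq, 1 library each. The authors aligned RNA reads with STAR 2.7.10b and scATAC-seq reads with BWA 0.7.12 to mm10, filtered cells and named populations with Seurat 5.2.1 and ArchR 1.0.3, and removed doublets. The authors deposited 1 gene matrix per assay in natural log units, with 1 added first to a mean that sums to 10000 in each population. For RNA, 2235 of 18268 values of the unknown cells equal 1 UMI of 1 cell (relative tolerance 1e-06), so cells weigh equally. The authors' cell tables give the count of UMIs or fragments per cell, the percent of mitochondrial UMIs and TSS enrichment, a ratio deposited as ArchR gave it. 19 further columns were not used. Median depth was 3070 UMIs and 3968 fragments per cell.

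The log was undone to give UMIs per 10000 and scATAC-seq signal per 1000000. Software was pandas 2.3.3, numpy 2.4.6 and scipy 1.17.1, run under Python 3.11.15, and figures used matplotlib 3.10.9. Ratios used a pseudocount of 0.1 for RNA and 1 for scATAC-seq, and all genes with a mean of at least 0.05 or 1 served for comparison. The ratio code was tested on simulated data. Shares have exact Clopper-Pearson 95% intervals, and a share of 0 is given with the limit of 3 cells. Lower limits are those of 3 UMIs at median depth.

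Members, gene lists and comparisons were chosen with earlier results of these data known. Of each further list, at most the 5 genes highest in the other somatic cells were to be named, with any gene a list result turns on. Rgs5, Notch3, Cspg4, Abcc9, Pdgfra, Ptprc, genes at the ends of a range and the 10 leading genes of each column were named after their values had been seen. Of 119 further list genes, 118 were in the RNA matrix. Some list genes are counted but not reported by name here. Loci and promoters are those of RefSeq for GRCm38.p6, the assembly of mm10. Alternatives changed pseudocounts, scaling, filters on cells and genes, and the likeness measure.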

Additional observations from a re-analysis of the deposited data

How the results depend on the processing

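No paired analysis was possible because each population has 1 pooled column and no result comes from a test, so replicates could not be left out either. Of the main values under an alternative, 138 stayed close to theirs (a count or ratio within 1.5 times, a share within its interval) and 34 moved. Of the values of single genes and lists, 337 stayed as close and 145 moved. No log2 ratio of at least 2-fold changed sign. Smaller ones did: against Sertoli cells, the scATAC-seq log2 ratio of the other somatic cells went from -0.17 to 0.28 for Tagln and from -0.23 to 0.20 for Flt1 without mitochondrial genes.
With a pseudocount of 0.01 for RNA, the other somatic cells had 5 of 5 muscle and 4 of 5 endothelial genes above Sertoli cells, where 31.7% of all genes were, and 5 and 1 above the highest germ cells (3.6%), and 1 muscle gene was lower than in the unknown cells (12.7%). In the unknown cells 1 muscle gene was then below the highest germ cells (61.4%). Percents in parentheses here and below are the shares of all genes at that setting. With a pseudocount of 1, the counts were 0 endothelial genes above Sertoli cells (1.38%) and 0 below the highest germ cells (12.2%) in the other somatic cells, 0 muscle genes of the unknown cells above Sertoli (2.62%) or germ cells (1.63%), 1 muscle gene above the unknown cells (0.911%), and 0 endothelial genes above control SpG in the library labelled Nfya-CKO (0.282%). Upper quartile scaling put 1 endothelial gene of the other somatic cells above the highest germ cells (2.85%). Without the unknown cells, 2 of 5 endothelial genes were highest in the other somatic cells, a count for which the share of all genes is not given here.
For scATAC-seq with a pseudocount of 10, 0 muscle and 0 endothelial genes of the other somatic cells were above Sertoli cells (0.0618%) and 0 muscle genes were below the highest germ cells (25.6%). In the unknown cells 0 endothelial genes were then above Sertoli cells (2.45%) and 1 above the other somatic cells (3.46%), 1 endothelial gene was below the highest germ cells (28.1%), and 1 muscle gene each was below Sertoli (4.28%) and other somatic cells (0.902%). With no pseudocount, 1 endothelial gene of the other somatic cells was below Sertoli cells (10.2%). Without mitochondrial genes, 2 endothelial genes of the other somatic cells were above Sertoli cells (8.04%), 0 muscle genes below the highest germ cells (41.6%), 1 muscle gene higher in SpG of the library labelled Nfya-CKO (4.47%) and 1 endothelial gene of the unknown cells below the highest germ cells (50.4%). Highest were then 1 muscle and 1 endothelial gene in the other somatic cells and 2 endothelial genes in the unknown cells, again without the share of all genes.
The share of other somatic cells from the library labelled Nfya-CKO was 69.1% with at least 1000 genes per cell and 56.8% with barcodes found in 1 library. By scATAC-seq it was 62.7%, and 38.7% with a TSS enrichment of at least 8. The share of Sertoli cells from 11 dpp was 89.3% with barcodes found in 1 library. The comparisons of the unknown cells with germ cells and with the other somatic cells, the highest columns without mitochondrial genes and the barcode filter were chosen after seeing the data. The cause of these moves was not tested beyond the settings themselves. The 99 and 54 unknown cells limit the weak muscle genes there.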

Other observations

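Genes outside the endothelial list also marked the unknown cells. Chosen after their values had been seen, Ly6c1, a surface protein of many endothelial cells, was 11.2 UMIs per 10000 there and at most 0.0626 elsewhere. Abcb1a, an efflux transporter known from barrier-type endothelium, was 7.14 and at most 0.0246 elsewhere. Tm4sf1, Adgrf5 and Sema3g were 8.14, 5.94 and 4.48. Of the contractile list, Tagln2, a relative of Tagln outside muscle, was 3.74 in the unknown cells and 0.476 in the other somatic cells, the reverse of the order of Tagln.

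Erg, of the endothelial list, and Mcam, of the pericyte and stromal list, were higher in SpG than in the unknown cells. Of the 22 further endothelial genes, 18 were highest in the unknown cells, again without the share of all genes. Erg was 0.922 in control undifferentiated SpG and 0.907 in SpG of the library labelled Nfya-CKO, beside 0.746 in the unknown cells. Mcam, an adhesion molecule of pericytes and endothelium, was 2.28 and 2.58 in those SpG and 0.490 in the unknown cells.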
